A study of Mus musculus with 6 samples.

Results

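The genes described here are those with reads in all Gpr125+ libraries and with almost none in the libraries labelled Gpr125-negative. Gpr125, encoded by Adgra3, is an adhesion G protein-coupled receptor. They were chosen by raw read counts: a symbol was included when it had at most 3 in both Gpr125-negative libraries and at least 20 in each of the 4 Gpr125+ libraries. Of 55291 symbols in the count tables, 41 met this rule, after symbols of the collagen, laminin, integrin, semaphorin, Sox, Wnt, Hox, chemokine, serpin and adhesion receptor families had been left out by their prefix. The prefixes removed only 1 symbol, the guidance ligand Sema3e, with 0 and 0 counts in FDG- cells, 405 and 306 at the distal end and 69 and 124 toward the nipple.

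All 6 libraries came from heterozygous Adgra3 lz/+ mice of 6 weeks of age, in which β-galactosidase is fused to Gpr125 after its first transmembrane region. Each library pooled the abdominal mammary glands of 5 mice. Antibodies to CD31, CD45 and Ter119 served to deplete blood and endothelial cells, although endothelial transcripts remained, as given below. Cells high in CD49f were sorted by their cleavage of FDG, a fluorogenic β-galactosidase substrate. FDG+ cells (Gpr125+) were taken separately from the part of the gland that holds the terminal end buds (TEB-distal, 2 libraries) and from the part near the nipple (nipple-proximal, 2 libraries), and FDG- cells gave the Gpr125-negative group (2 libraries). The study isolated FDG- cells from both parts of the gland, and the labels of these 2 libraries do not name a part. Counts of a gene are given for replicates 1 and 2 of FDG- cells, then of FDG+ cells of the distal end (TEB-distal), then of FDG+ cells toward the nipple (nipple-proximal). Every animal thus carried the reporter allele. Nothing beyond the pooling of separate mice is given for the replicates, so the p-values measure the spread between these samples.

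Terminal end buds are the growing tips of the pubertal mammary duct. Their outer layer of cap cells divides and gives rise to the basal, myoepithelial layer of the duct, and the tip moves through a matrix that it also remodels.

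Total counts were between 20134890 and 37296640 per library, and the Gpr125-negative libraries were the deepest (37296640 and 33300561). The second Gpr125-negative library had the fewest symbols with a count, 17401, against 20384 to 21963 in the others. Adgra3 itself went against the labels, with 35.7 and 18.6 normalised CPM in the Gpr125-negative and 4.83 to 19.2 in the Gpr125+ libraries (CPM, each count as a share of the library total scaled to one common size, here by the TMM factors of edgeR). The sort was on β-galactosidase activity, and transcript counts of Adgra3 do not measure it. Basal markers were present in all libraries, and the sum of 12 of them ran from 3151 to 23106 CPM of the total count, with 8 of the 12 higher in every Gpr125+ library than in both Gpr125-negative ones. The sum of 12 endothelial markers was 1698 and 753 CPM in the libraries labelled Gpr125-negative and 20.6 to 242 CPM in the Gpr125+ libraries, with 7 of the 12 higher in both Gpr125-negative libraries. The sum of 10 adipocyte markers was 843 and 563 CPM against 3.34 to 36.3 CPM, with 1 of the 10 higher in both Gpr125-negative libraries than in every Gpr125+ library, while Cidec, Plin1 and Retn were at 0 in both. Fabp4, a fatty acid carrier that capillary endothelium also expresses, made up most of that sum, with 31236 and 18628 counts against 32 to 511. In pooled RNA, fewer cells of a type and less RNA per cell cannot be told apart. None of the 41 genes is in any of these marker lists, and the part of other cell types in their absence was not tested.

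The 41 genes were detected at low to moderate levels. Over the 4 Gpr125+ libraries their raw counts ran from 20 to 901 with a median of 65.5, and their mean level from 1.41 to 11.9 normalised CPM with a median of 3.22. The median over all 10991 symbols with at least 20 counts in each Gpr125+ library was 26.9 normalised CPM. In the libraries labelled Gpr125-negative the 41 genes together had 35 and 20 counts, against 5994 and 5666 at the distal end and 2429 and 2950 toward the nipple. These totals restate the rule and are given as a description.

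**Figure D1:**
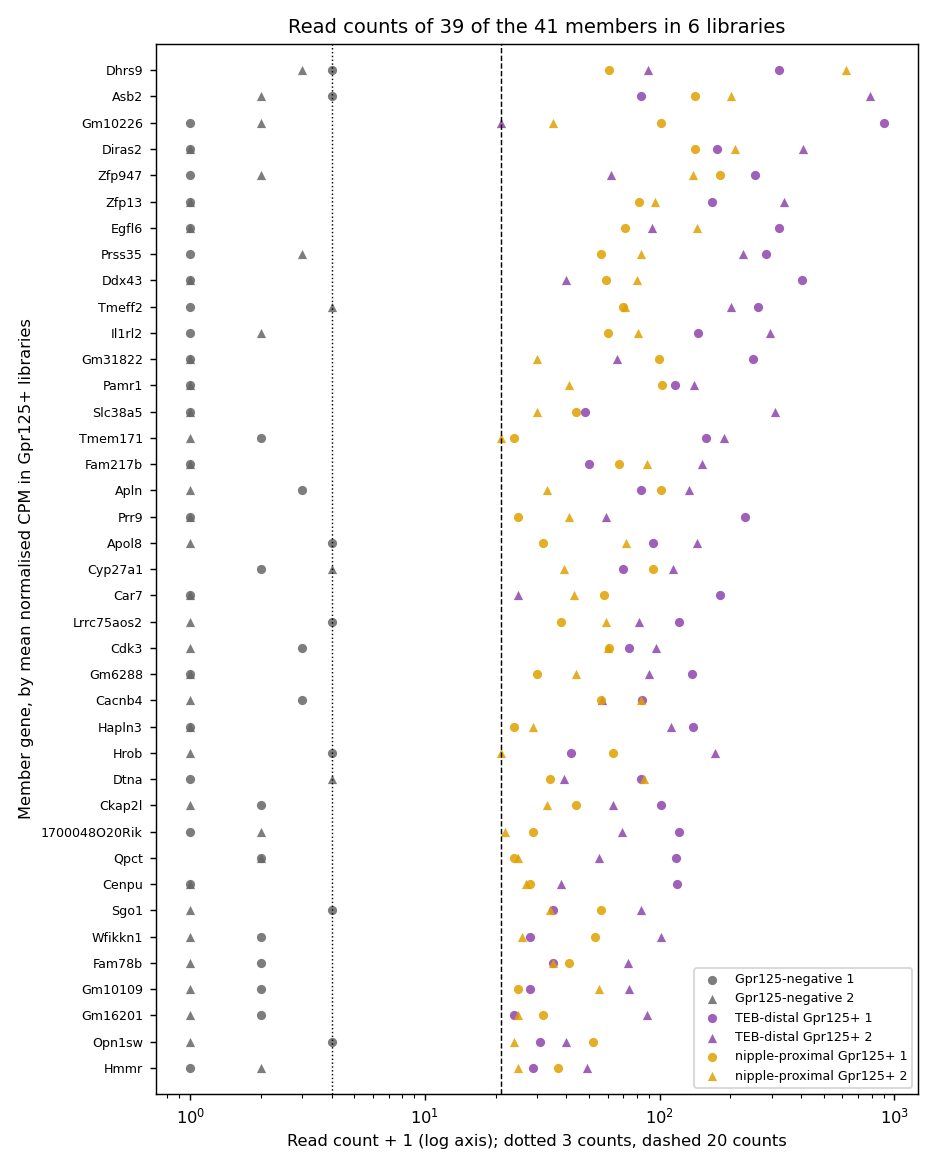
Read counts plus 1 on a log axis for 39 of the 41 genes (rows) in each of the 6 libraries, with grey for Gpr125-negative, purple for TEB-distal Gpr125+ and yellow for nipple-proximal Gpr125+ cells, and with circles and triangles for replicates 1 and 2. The dotted and dashed lines mark the limits of 3 and 20 counts; the widest row is Gm10226, with 20 to 901 counts in the Gpr125+ libraries.

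No count was seen in either Gpr125-negative library for 15 of the 41 genes, among them Car7, Cenpu, Ddx43, Diras2, Egfl6, Fam217b, Gm31822, Gm6288, Hapln3, Pamr1, Prr9, Slc38a5 and Zfp13. Against a floor of 3 counts over both libraries (0.0395 normalised CPM), the level of these genes was at least 38.2-fold to at least 268.9-fold higher in TEB-distal and at least 31.1-fold to at least 212.5-fold higher in nipple-proximal cells. The other 26 genes had 1 to 5 counts over both Gpr125-negative libraries. Their ratio was 31.8 to 1272 in TEB-distal cells, with a lowest exact 95% limit of 10.4, and 42.9 to 580.9 in nipple-proximal cells, with a lowest limit of 11.2. Large folds and high limits follow from the rule that picked the genes, so they are a description and not a test. Floors and limits cover counting error only, since they pool both libraries of a group and leave out the spread between libraries. The libraries held no molecular identifiers, so reads may be copies of the same molecule, and the limits may be too narrow even for counting error.

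The same rule was applied with each other pair of libraries as the low pair and the remaining 4 as the high libraries. The other 14 pairs gave between 0 and 88 symbols, with a median of 7 and a mean of 16.6. Both pairs with more than 41 symbols joined the second Gpr125-negative library with a TEB-distal one, with 88 (TEB-distal 2) and 59 (TEB-distal 1). When both TEB-distal libraries were the low pair 20 symbols were found, and when both nipple-proximal libraries were, 5. The reverse of the rule, with at least 20 counts in both Gpr125-negative and at most 3 in each Gpr125+ library, gave 26. The pairs share libraries, so these counts are not independent of one another.

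**Figure D2:**
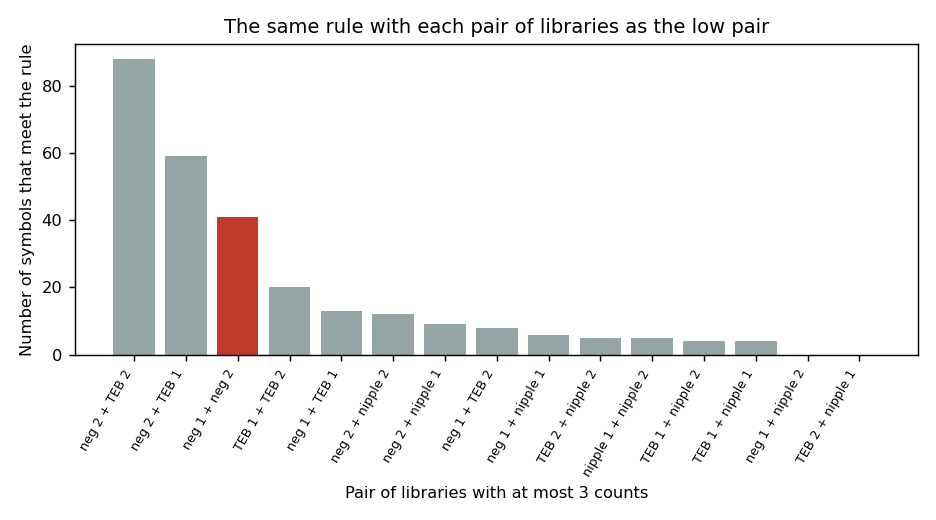
Number of symbols (bars, vertical axis from 0) that met the rule when each of the 15 pairs of libraries in turn was required to have at most 3 counts, the other 4 having at least 20. The pair of Gpr125-negative libraries (red) gave 41 and stood after the pairs of Gpr125-negative 2 with TEB-distal 2 (88) and with TEB-distal 1 (59).

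The low values lay unevenly between the Gpr125-negative libraries. Of 10873 symbols with at least 20 counts in each Gpr125+ library (after the prefixes), 96 (0.883%) had at most 3 counts in the first Gpr125-negative library and 900 (8.28%) in the second. The 41 genes were 42.7% of those 96 and 4.56% of those 900. The share low in both fell with level, from 3.24% of genes under 2 CPM to 2.01% at 2 to 5 CPM, 0.563% at 5 to 10 CPM and 0.0668% at 10 to 50 CPM. Among 3583 genes at 50 CPM or more, 0 were low in both. The set thus held no abundant transcript.

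**Figure D3:**
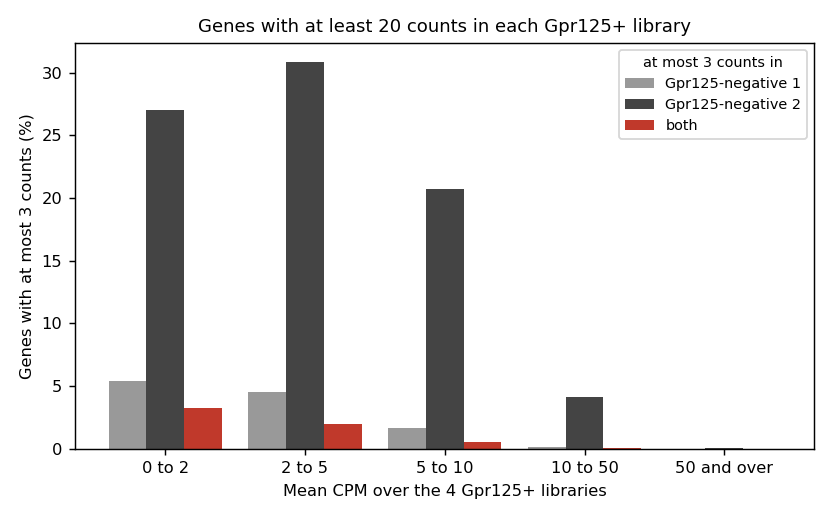
Percent of genes (vertical axis from 0) with at most 3 counts in Gpr125-negative library 1, library 2 or both, by mean CPM over the 4 Gpr125+ libraries, among genes with at least 20 counts in each Gpr125+ library. The second library is highest in every bin up to 50 CPM, and the share low in both is 3.24% under 2 CPM and 0.0668% at 10 to 50 CPM.

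The edges of the rule were crowded. Just inside it, Gm10226, Hrob and Tmem171 had 20 counts in their lowest Gpr125+ library and 1700048O20Rik had 21, and Dhrs9 had 3 and 2 counts and Asb2 3 and 1 counts in the Gpr125-negative libraries. Just outside it, Arsj, Fras1, Nek2 and Stil had 19 counts in one Gpr125+ library, and A730011C13Rik, Arxes2, Kif11 and Rnf26 had 4 counts in one Gpr125-negative library. With the latter 4, 33 symbols had 4 to 10 counts in the higher Gpr125-negative library and met the other limit, and with the former 4, 62 had 10 to 19 in the lowest Gpr125+ library. The spindle motor Kif11 was among those left out by a single count, with 0 and 4 counts in FDG- cells, 505 and 52 at the distal end and 72 and 36 toward the nipple.

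Genes of cell division and DNA repair made up 5 of the 41. Cenpu (a centromere protein), Ckap2l (a spindle protein), Hmmr (the hyaluronan-mediated motility receptor, which acts at the spindle), Sgo1 (shugoshin, the protector of centromeric cohesion) and Hrob (a factor of homologous recombination) are outside the rule by which other genes were picked and were described after their values had been seen. CCAAT boxes recur in the promoters of genes transcribed late in the cell cycle, as does the cell cycle homology element (CHR), so the 250 bases before the start of the 2 of these genes with more than 1 CCAAT box are shown. They are from RefSeq (GRCm38.p6), read 5′ to 3′ on the strand of the gene, with CCAAT (or ATTGG on the other strand) and the CHR letters TTTGAA (or TTCAAA) in capitals.
Ckap2l, chr2:129297213-129297462, minus strand: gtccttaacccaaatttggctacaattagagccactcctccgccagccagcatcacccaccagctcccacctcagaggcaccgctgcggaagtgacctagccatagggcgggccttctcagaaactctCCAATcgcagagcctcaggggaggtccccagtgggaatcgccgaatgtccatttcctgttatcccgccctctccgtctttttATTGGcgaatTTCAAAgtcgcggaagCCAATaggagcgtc
Hmmr, chr11:40733438-40733687, minus strand: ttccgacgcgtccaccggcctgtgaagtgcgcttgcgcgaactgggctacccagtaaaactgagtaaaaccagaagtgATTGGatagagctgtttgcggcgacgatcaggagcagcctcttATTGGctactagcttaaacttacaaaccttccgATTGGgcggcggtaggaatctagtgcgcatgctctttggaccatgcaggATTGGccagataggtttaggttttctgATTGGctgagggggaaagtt
Ckap2l had 3 CCAAT matches and 1 CHR match in this window, and Hmmr had 5 CCAAT matches and 0 CHR matches. Cenpu had 1 CCAAT and 0 CHR matches, and Sgo1 had 0 of either. RefSeq promoters were found for 29 of the 41 genes (35 promoters), and 13 of the 35 promoters (37.1%) held CCAAT, against 33.8% of all 32851 promoters of this length. TTTGAA was held by 3 of the 35 (8.57%) and 15.99% of all promoters, and TATAAA (or TTTATA) by 4 of the 35 (11.4%) and 12.4%. The CCAAT genes included Cenpu, Cacnb4, Ddx43, Egfl6, Prss35 and Tmeff2 beside Ckap2l and Hmmr. Letters in a window are a description and not a site.

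Within the Gpr125+ libraries the division genes were at the lower end of the set. Ckap2l had 1 and 0 counts in FDG- cells, 100 and 62 at the distal end and 43 and 32 toward the nipple. Cenpu had 0 and 0 counts, then 118 and 37, then 27 and 26, in the same order. Hmmr had 0 and 1 counts, then 28 and 48, then 36 and 24, and was the lowest of the 41 by mean normalised CPM in the plot of counts. Sgo1 had 3 and 0 counts in FDG- cells, 34 and 82 at the distal end and 55 and 33 toward the nipple, and Hrob 3 and 0, 41 and 171, and 62 and 20. In TMM-normalised CPM and in CPM of the total count the TEB-distal and nipple-proximal values overlapped in all 5 genes. With DESeq2 size factors both TEB-distal values of Cenpu and Ckap2l were above both nipple-proximal ones. The same held in the unscaled counts, which ignore library size. Exons of Cenpu shared 26.7% of their bases with Primpol on the opposite strand, and since reads were counted without strand, those of the 2 genes cannot be told apart there. Primpol had 10 and 0, 161 and 3, and 74 and 24 counts.

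A list of 20 further mitosis genes, drawn up after the 41 were known, was set beside them. Of the 20, Aurkb, Ccna2, Kif11, Top2a and Ube2c were higher in every Gpr125+ library than in both Gpr125-negative libraries in normalised CPM (5 of 20, against 7.66% of all genes tested), and 15 were not. Among the 15, Plk1 alone was in the reverse order, with 5.68 and 12.3 normalised CPM in FDG- cells against 1.91 to 4.36 in the Gpr125+ libraries. The count of genes higher in every Gpr125+ library was 4 of 20 with DESeq2 size factors, and 3 of 20 (Ccna2, Kif11 and Top2a) in CPM of the total count. The summed level of the 20 was 57.4 and 26.9 normalised CPM in FDG- cells, 171 and 153 at the distal end and 73.6 and 53.9 toward the nipple. The range of the Gpr125-negative sums overlapped that of the nipple-proximal ones. At most 3 counts were found for 1 of these genes in the first Gpr125-negative library, for 10 in the second and for 0 in each Gpr125+ library.

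**Figure D4:**
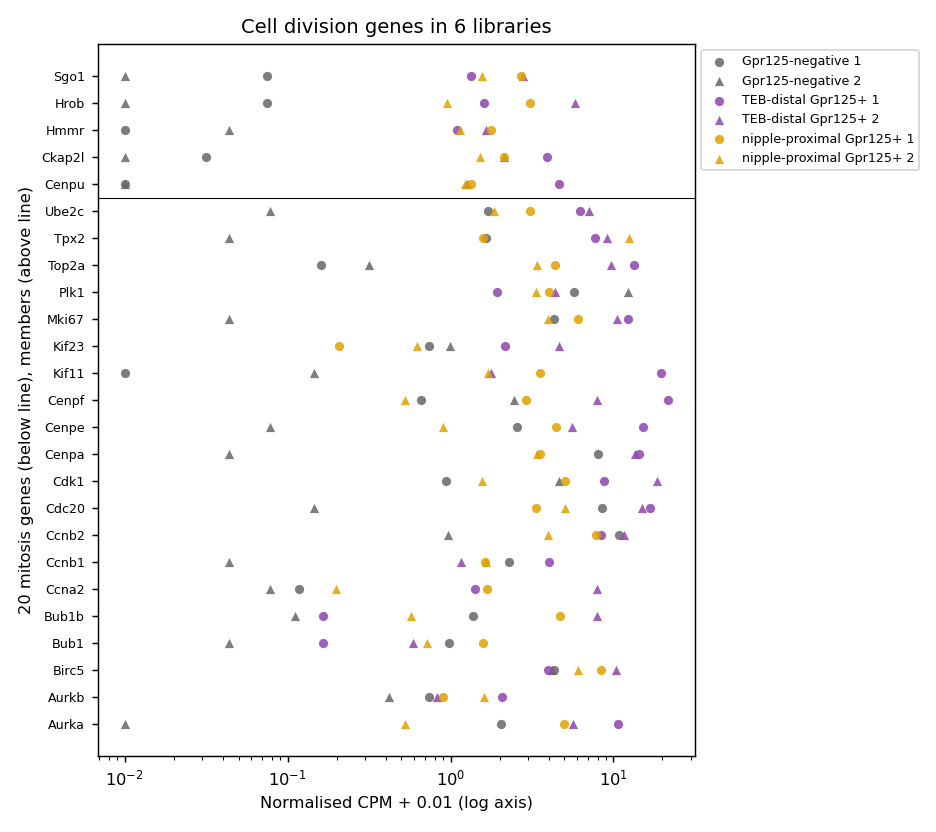
Normalised CPM plus 0.01 (log axis) of the 5 division genes of the set (above the line) and of 20 further mitosis genes (below it) in each of the 6 libraries, coloured by group. Among the 20, every Gpr125+ library is above both grey symbols of the Gpr125-negative libraries in 5 genes, and in the other 15 a grey symbol reaches or passes the lowest Gpr125+ value.

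Secreted and cell surface ligands, matrix proteins and extracellular enzymes made up 8 of the 41. Hapln3, a link protein that joins hyaluronan to proteoglycans (chr7:79115102-79131018), had 0 and 0 counts in FDG- cells, 138 and 111 at the distal end and 23 and 28 toward the nipple. It was the only one of 76 non-collagen matrix genes, 35 of which reached 20 counts in each Gpr125+ library, to meet the rule. Prss35, a secreted serine protease-like protein (chr9:86743649-86758443), had 0 and 2, 282 and 225, and 55 and 82 counts in the same order. Qpct, the glutaminyl cyclase that forms N-terminal pyroglutamate, had 1 and 1, 117 and 54, and 23 and 24, and Tmeff2, a transmembrane protein with EGF-like and follistatin-like domains, 0 and 3, 261 and 200, and 69 and 70. These 4 of the 8 are placed together because both their TEB-distal libraries were above both nipple-proximal ones in normalised CPM. The same order held in 15.2% of all genes tested and in 21.1% of genes in the range of level of the 41.

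The other 4 extracellular genes overlapped between the regions in normalised CPM, although the unscaled counts of Pamr1 did not. Egfl6, a secreted matrix protein with EGF repeats (chrX:166523007-166585720), had 0 and 0 counts in FDG- cells, 321 and 92 at the distal end and 70 and 143 toward the nipple, and was 8th by level per kilobase of exon. Pamr1, a secreted protein with a peptidase domain, had 0 and 0, 115 and 139, and 101 and 40. Apln, the ligand of the apelin receptor, had 2 and 0, 82 and 132, and 100 and 32 counts. Wfikkn1, a secreted protease inhibitor that binds growth factors of the myostatin type, had 1 and 0, 27 and 100, and 52 and 25. Pamr1, Apln and Wfikkn1 were described after their values had been seen.

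Channels, transporters, receptors and signalling proteins made up a further 8. Asb2, the substrate receptor of a ubiquitin ligase that targets filamins (chr12:103321142-103356001), had 3 and 1 counts in FDG- cells, 82 and 788 at the distal end and 140 and 201 toward the nipple, so that its 2 TEB-distal libraries lay on either side of the nipple-proximal ones. Diras2, a small GTPase of the Ras family, had 0 and 0, 175 and 409, and 140 and 209 counts. Slc38a5, a glutamine transporter, had 0 and 0, 47 and 310, and 43 and 29. The highest values of Asb2, Diras2 and Slc38a5 were thus in TEB-distal library 2 alone.

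By mean level per kilobase of exon over the Gpr125+ libraries, Cacnb4, Il1rl2, Dtna and Opn1sw were below Asb2, Diras2 and Slc38a5. Cacnb4, an auxiliary subunit of voltage-gated calcium channels, had 2 and 0 counts in FDG- cells, 83 and 56 at the distal end and 55 and 82 toward the nipple. It is among 274 ion channel genes, 42 of which had at least 20 counts in each Gpr125+ library, and Slc38a5 was 1 of 395 solute carriers (176). Il1rl2, a chain of the interleukin-1 receptor family, had 0 and 1, 145 and 295, and 59 and 80 counts, with both TEB-distal libraries above both nipple-proximal ones. Dtna, dystrobrevin alpha, had 0 and 3, 82 and 38, and 33 and 85. Opn1sw, the short-wave cone opsin, had 3 and 0, 30 and 39, and 51 and 23 counts, and shared 15.5% of its exon bases with Calu on the opposite strand, which had 10094 to 26681 counts in the 6 libraries. Dtna and Opn1sw were described after their values had been seen.

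Metabolic enzymes were 3 of the 41. Dhrs9, a short-chain dehydrogenase of retinoids and steroids (chr2:69380445-69404533), had 3 and 2 counts in FDG- cells, 322 and 88 at the distal end and 60 and 619 toward the nipple, and its fitted difference between the regions was the lowest of the 41. Car7, a cytosolic carbonic anhydrase, described after its values had been seen, had 0 and 0, 180 and 24, and 57 and 42 counts. Cyp27a1, the mitochondrial sterol hydroxylase of bile acid synthesis, had 1 and 3, 69 and 113, and 93 and 38. None of the 3 separated the regions.

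Among zinc finger and helicase genes, Zfp13 (chr17:23575844-23599487) had 0 and 0 counts in FDG- cells, 166 and 337 at the distal end and 81 and 95 toward the nipple. Ddx43, a DEAD-box RNA helicase known from the germ line, had 0 and 0, 405 and 39, and 58 and 79 counts, so TEB-distal library 1 held its high value. Zfp947 had 0 and 1, 254 and 61, and 180 and 138. Genes of its zinc finger family are near-identical in parts, and reads of Zfp947 may be split with such copies.

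Another 14 genes were of other or no known function, and 8 of the 41 were non-coding, pseudogenes or predicted. By level per kilobase the highest was Gm10226, a predicted single-exon gene of 255 bases (chr17:21691860-21692114), with 0 and 1 counts in FDG- cells, 901 and 20 at the distal end and 100 and 34 toward the nipple. Its TEB-distal libraries differed by a larger factor than those of any other of the 41 genes, and it may share reads with near copies. Prr9, a proline-rich protein gene of the epidermal differentiation complex (chr3:92122204-92123947), had 0 and 0, 231 and 58, and 24 and 40 counts. Tmem171, a transmembrane protein gene (chr13:98686235-98694834), had 1 and 0 counts in FDG- cells, 157 and 187 at the distal end and 23 and 20 toward the nipple, and had the largest fitted difference between the regions. Cdk3, in GENCODE a polymorphic pseudogene and so uncertain, varied least, with 2 and 0, 73 and 96, and 60 and 59 counts. Lrrc75aos2, antisense to Lrrc75a, with which it shares 7.01% of its exon bases, had 3 and 0, 120 and 81, and 37 and 58.

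The genes of this group that follow were described after their values had been seen. Apol8, of the apolipoprotein L family, had 3 and 0 counts in FDG- cells, 93 and 144 at the distal end and 31 and 71 toward the nipple. The lincRNA 1700048O20Rik had 0 and 1, 120 and 68, and 28 and 21, and Gm6288, antisense to Ccdc91, 0 and 0, 137 and 89, and 29 and 43. These 3 had both TEB-distal libraries above both nipple-proximal ones. Fam217b, Fam78b, Gm10109, Gm16201 and Gm31822 had 23 to 248 counts in the Gpr125+ libraries, and their regions overlapped. Opposite-strand genes shared 12.03% of the exon bases of Gm6288, 28.6% of those of Gm16201, 15.99% of those of Cacnb4 and 15.9% of those of Ddx43.

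The genes shared few features of their annotation. They lay on 15 chromosomes, with 6 on chromosome 17 and 5 each on chromosomes 1, 2 and 11, and 3 (7.32%) were on the X chromosome, against 3.16% of the genes with at least 20 counts in each Gpr125+ library. Median merged exon length was 3032 bases against 4429.5, with 7 against 9 exon blocks, and 34 (82.9%) were protein coding against 93.4%. Per kilobase of exon their level ran from 0.149 to 41.5 normalised CPM with a median of 1.12.

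Levels differed widely between the 4 Gpr125+ libraries, both between and within the regions. The highest Gpr125+ library exceeded the lowest by a median factor of 3.30 over the 41 genes, and by 3.35 over the 3198 genes of the same range of level. This ratio exceeded 5-fold in 11 of the 41 (26.8%), against 18.9% of all genes with at least 20 counts in each Gpr125+ library. Those genes were not matched for level, and their median level was higher (26.9 against 3.22 normalised CPM). Between replicates of a group, the TEB-distal libraries differed by over 3-fold in 15 of the 41 and the nipple-proximal ones in 5. No share over all genes is given for these 2 counts, so nothing is read from them about the 41. The highest library was TEB-distal 1 for 16 genes, TEB-distal 2 for 16, nipple-proximal 1 for 5 and nipple-proximal 2 for 4.

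Whether the genes differ between the growing tip and the mature duct was a comparison the rule had not used. By edgeR's quasi-likelihood test (Benjamini-Hochberg adjusted p under 0.1 and at least 2-fold), 0 of the 41 were called, and 0 of 17268 genes tested (0%). At an unadjusted p under 0.05 there were 0 of the 41, against 2.21% of all genes (381). DESeq2 on all 6 libraries called 0 of the 41, against 0.844% of all genes, with 1 of the 41 (Tmem171) under an unadjusted p of 0.05. With 2 libraries against 2, an exact two-sided permutation test of a single gene cannot pass 0.05, since 2 of the 6 possible arrangements are always at least as far apart.

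Both TEB-distal libraries were above both nipple-proximal ones in TMM-normalised CPM in 12 of the 41 genes (29.3%), against 15.2% of all genes tested and 21.1% of genes in the same range of level. With DESeq2 size factors the genes were 15, with Cdk3, Cenpu and Ckap2l added, and with raw totals 14, both counts holding the 12. The reverse held for 0 of the 41 under each scaling. With TMM it held for 18.3% of all genes and 14.4% in that range. Shares over all genes are given for TMM only, so the counts under the other scalings have none beside them. The 12 were Tmem171, Hapln3, Prr9, Prss35, Qpct, Tmeff2, Il1rl2, Zfp13, 1700048O20Rik, Gm6288, Apol8 and Lrrc75aos2. By role they were 4 of the 8 extracellular genes, 1 of 8 channel, receptor and signalling genes, 1 of 3 zinc finger and helicase genes, 0 of 3 metabolic, 0 of 5 division and 6 of the other 14 genes. The fitted log2 difference (TEB-distal minus nipple-proximal) was above 0 in 32 genes (78.0%) and below 0 in 9, against 52.6% above 0 among all genes and 60.3% in the range of level. Its median was 0.71 over the 41, 0.06 over all genes tested and 0.24 in the range of level, and all 8 extracellular genes were above 0, with a median of 0.98. These are descriptions of genes that share 4 libraries, and no gene passed the test.

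**Figure D5:**
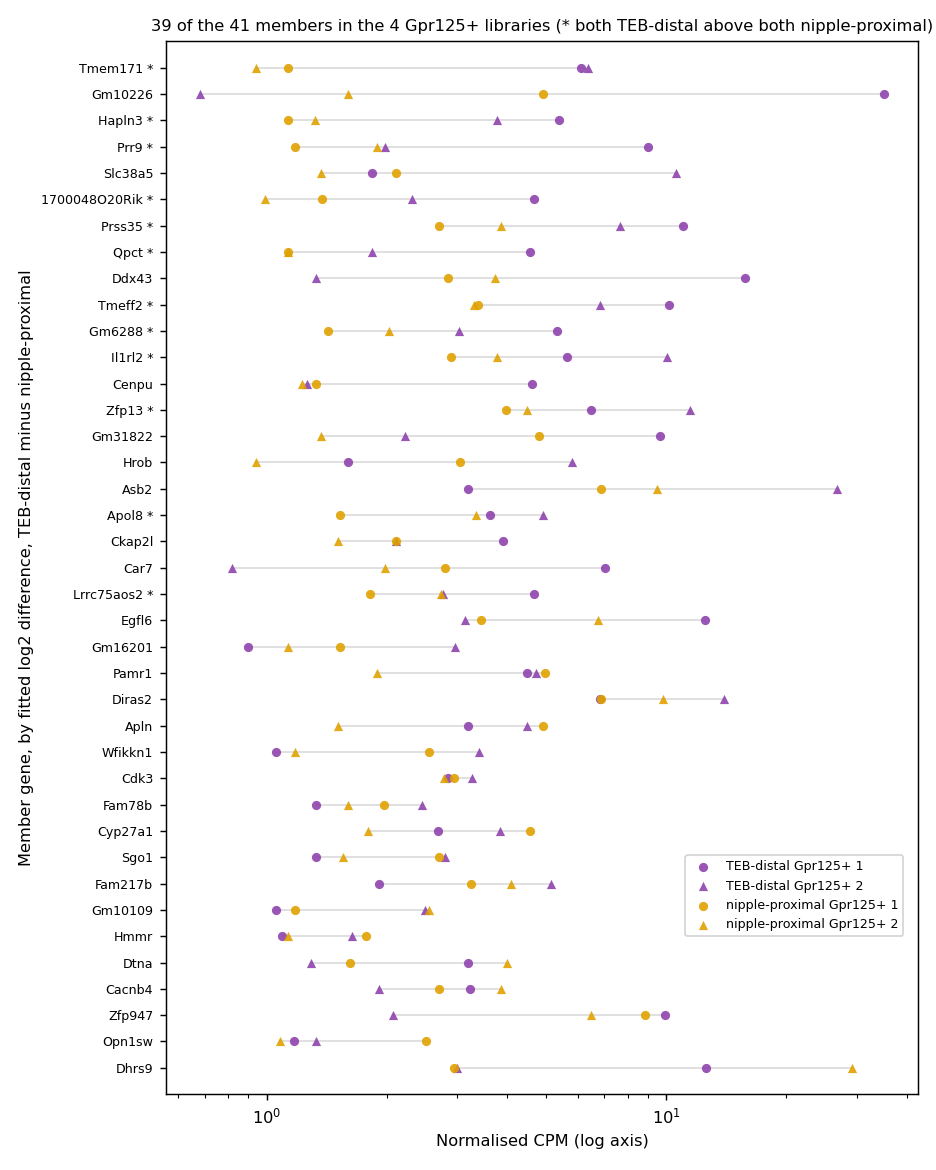
Normalised CPM (log axis) of 39 of the 41 genes in the 4 Gpr125+ libraries, purple for TEB-distal and yellow for nipple-proximal cells, circles for replicate 1 and triangles for replicate 2, sorted by fitted log2 difference. An asterisk marks the 12 genes in which both TEB-distal libraries are above both nipple-proximal ones; at the foot, Dhrs9 has its highest value in nipple-proximal library 2.

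Tmem171 had the largest difference, with a mean of 6.24 ± 0.173 normalised CPM at the distal end and of 1.04 ± 0.133 toward the nipple (SD, n = 2 each). Its log2 difference was 2.59 (SE 1.66). For Hapln3 the means were 4.58 ± 1.13 and 1.22 ± 0.133, with a log2 difference of 1.90 (SE 1.69). Tmeff2 had 8.49 ± 2.38 and 3.34 ± 0.0659 normalised CPM, with a log2 difference of 1.34 (SE 1.66), and Prss35 had 9.33 ± 2.36 and 3.28 ± 0.82, with 1.51 (SE 1.59). Gm10226 had a larger difference than these 3, 2.46 (SE 1.86), which rested on TEB-distal library 1, and Dhrs9 had the lowest, -1.04 (SE 1.40). The standard errors were larger than most of the differences, and the adjusted p of every one of the 41 genes was 1 by the edgeR test.

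Against the libraries labelled Gpr125-negative, which the rule had used, the counts of calls are given as a description only. The edgeR quasi-likelihood test called 0 of the 41 genes for either Gpr125+ region, as it called 0% of all genes in both. DESeq2 on all 6 libraries called 41 of the 41 in both comparisons, against 5.43% of all genes for TEB-distal cells and 1.97% for those near the nipple. Both comparisons share the Gpr125-negative libraries.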

How the data were processed

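RNA-seq was made from 6 libraries of sorted mammary cells of Adgra3 lz/+ mice, 2 from Gpr125-negative cells, 2 from Gpr125+ cells of the TEB-distal part of the gland and 2 from those of its nipple-proximal part. Alignment by the authors was to mm10, using STAR (2.7.3 in the submitters' processing notes; the paper's text names another version). They counted reads with HTSeq, ignoring strand, and deposited raw read counts per gene symbol. The annotation release is not given in the sources used here.

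Members were found on the deposited counts by the stated limits (at most 3, at least 20). The members and the gene lists were chosen with earlier results of these data known. Normalised CPM used TMM factors, and levels per kilobase used merged exon lengths of GENCODE for the same build, to which 39 members matched by symbol and 2 (Hrob and Cdk3) by RefSeq accession. Tests used edgeR 4.0.16 (filterByExpr, glmQLFit, glmQLFTest, R 4.3.3) on all 6 libraries, with Benjamini-Hochberg adjustment over 17268 genes, and DESeq2 1.42.0 as an alternative. All 41 members passed the filter, and 2 of them enter the counts and summaries but are not reported singly here. Ratio intervals were exact binomial intervals at 95%. The edgeR script was checked on simulated counts. Alternatives changed the limits of the rule, the scaling, the filter, the test, the libraries in the fit and the replicate block, and left out each library in turn. Named by rule were, among protein-coding members with a gene name, the 12 highest per kilobase, the 8 with the largest regional difference among those whose regions did not overlap, and members of the gene lists, the genes at the edges of the limits, and the 3 highest non-coding or predicted genes. The text says which others were described after their values were seen. No batch is given in the labels.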

Additional observations from a re-analysis of the deposited data

How the results depend on the processing

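The number of genes that met the rule depended on its limits and on single libraries. It was 15 with 0 counts required in both Gpr125-negative libraries, 122 (all 41 among them) with at most 5 and at least 10 counts, and 11 with at least 50 counts in each Gpr125+ library, since each rule changes which genes qualify. With counts scaled to the smallest library it was 38, 30 of them among the 41. Leaving out 1 library gave 60 to 900: 900 without Gpr125-negative 1, 96 without Gpr125-negative 2, 71 and 64 without TEB-distal 1 and 2, and 75 without nipple-proximal 1, as fewer libraries had to meet the limits.

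No alternative called any of the 41 between TEB-distal and nipple-proximal cells. Over all genes, calls were 39 with all genes of at least 1 count tested and 21 with the likelihood ratio test. DESeq2 called 133 on 6 libraries and 357 on 4. With DESeq2 size factors in edgeR, the replicate block or edgeR on 4 libraries, 0 of all genes were called. The median log2 difference of the 41 was 0.35 to 0.98 without single libraries. Against Gpr125-negative, calls in TEB-distal cells were 10 (of 137 over all genes) with all genes of at least 1 count tested, 37 (of 541) with the likelihood ratio test, 41 (of 943) with DESeq2 on 6 libraries and 37 (of 682) with DESeq2 on 4, and 0 to 7 without single libraries (7 of 747 without Gpr125-negative 1). In nipple-proximal cells they were 5 (of 58), 10 (of 26), 41 (of 321) and 31 (of 317), and 0 to 2 (2 of 335 without Gpr125-negative 1). The cause was not tested.

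Correlations of the replicate differences across genes were -0.03 (Gpr125-negative with TEB-distal), 0.19 (Gpr125-negative with nipple-proximal) and -0.00 (TEB-distal with nipple-proximal). The labels do not say whether same-numbered libraries belong together, and these values do not settle it. With the replicate block the median log2 difference was 0.58 and 0 of the 41 were called in any of the 3 comparisons. Genes with both TEB-distal libraries above both nipple-proximal ones were 15 with DESeq2 size factors and 14 with raw totals, and the reverse was 0 in both. No share over all genes is given for these scalings.

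Of 247 values of the 19 genes picked by rule, 8 changed sign, each on leaving out 1 library. Lowest and highest log2 differences without single libraries were -1.37 (no TEB-distal 2) and 1.78 for Asb2, -0.026 (no TEB-distal 2) and 0.26 for Cdk3, -0.31 (no TEB-distal 2) and 0.80 for Diras2, and -1.82 and 0.35 (no TEB-distal 2) for Zfp947. They were -1.24 (no TEB-distal 1) and 2.25 for Ddx43, -0.63 (no TEB-distal 1) and 1.28 for Egfl6, -2.20 (no TEB-distal 1) and 3.48 for Gm10226, and -2.34 and 1.38 (no nipple-proximal 2) for Dhrs9. When a group is left with 1 library, that library is assumed to vary like the others. Low counts limit all of these values: the members' median was 65.5 counts in a Gpr125+ library.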
